A study of Mus musculus with 283 samples.

Results

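The genes that encode the chains of collagen were followed through mouse transplantable tumours, the cultured lines that gave rise to them, and the lymph nodes and spleens of the same hosts. A gene was taken as a member when a probe set of the exon array named it alone and its symbol had the form of a collagen chain (Col, a type number, a, a chain number). This gave 39 chains among the 15224 genes measured, each on 1 probe set. Of the 45 chains looked for, 6 were not measured: Col19a1 lay only on a probe set that names several genes, and Col21a1, Col22a1, Col28a1, Col6a4 and Col6a5 were named by none. By class there were 11 fibrillar chains, 6 chains of type IV, 4 of type VI, 7 fibril-associated chains (FACIT), 3 chains of short network collagens, 4 transmembrane chains, 2 multiplexins (Col15a1 and Col18a1), the anchoring fibril chain Col7a1 and the unclassed Col26a1. Of the 39, 38 passed the filter on low values, a log2 value above 4.3 on 4 or more arrays of the comparison. The fibrillar chain Col24a1 did not pass, and its values ran from 2.16 to 5.31 over all arrays.

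Collagens are secreted proteins whose chains wind into a rope-like helix. Fibrillar collagens such as types I, III and V build the tension-bearing fibres of connective tissue and are made mainly by fibroblasts. Type IV forms the sheet-like network of basement membranes under epithelium and around vessels, type VI forms beaded filaments between fibres and basement membranes, and FACIT collagens decorate the surface of fibrils. In tumours collagen is a main component of the desmoplastic stroma, made by fibroblasts and, in some lines, by the tumour cells themselves.

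The arrays comprised 77 tumours of 15 models, 92 nodes (72 draining a tumour, 20 from tumour-free mice), 98 spleens (78 and 20) and 16 cultures. Male C57BL/6J mice were the hosts of TRAMPC1 and TRAMPC2 (prostate), female BALB/c mice of 4T1 (mammary), CT26 (colon) and Renca (kidney) carcinoma, and female DBA/2J mice of P815 mastocytoma. Female C57BL/6J mice were the hosts of B16 melanoma as 4 stocks (B16F0 from ATCC and from ECACC, B16F10 from ATCC and from NCI), LL2 (lung), MC38 (colon), EL4 (T cell lymphoma), TC1 (lung epithelium) and PAN02 (pancreas). All were implanted subcutaneously on the back, apart from PAN02, which was placed in the pancreas and had no node. Tumour groups held 5 arrays, apart from MC38 with 8 and PAN02 with 4, and each of the 4 kinds of tumour-free host (these strains and sexes) gave 5 nodes and 5 spleens. Each line was cultured once, TC1 had no culture, and Hepa1-6 and ID8 were present as cultures alone. Averaging the B16 stocks, and likewise TRAMPC1 with TRAMPC2 (TRAMP-C below), left 11 tumour families. Family cannot be told apart from host for TRAMP-C, the 1 family grown in males, and for P815, the 1 family grown in DBA/2J mice. Tumour-bearing samples carried sample numbers up to 229 and tumour-free organs and cultures numbers from 232, so any effect of processing order cannot be told apart from tumour bearing or from culture. Values are log2, and a difference of 1 is a doubling of the signal. Levels are compared within a chain and never between chains, whose probe sets respond differently. In bulk tissue, fewer cells of a type and less RNA per cell cannot be told apart.

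Several libraries stood out from others of their kind in their markers of cell types. The mean of the 5 measured lymphocyte markers lay between 8.39 and 9.37 in 84 nodes, and between 3.97 and 6.68 in the tumours. In the remaining 8 nodes it was below 8: the draining nodes of 4T1 mouse 36 (4.54), CT26 mice 28 (4.79) and 29 (4.65) and Renca mice 21 (4.76), 22 (4.77) and 24 (4.49), and the tumour-free nodes of DBA/2J mouse 5 (4.66) and C57BL/6J female 5 (6.72). The 6 draining nodes among them correlated with the tumours of their own model at 0.967 to 0.984 and with the other nodes of their group at 0.873 to 0.896, as Pearson coefficients across genes. Keratinocyte markers averaged above 7 in 7 tumours (CT26 25, TRAMPC1 30, TRAMPC2 31 and 34, P815 27, 28 and 30), and pancreatic acinar markers averaged above 7 in 2 PAN02 tumours (3 and 4) and 10 spleens. Calls that changed when these arrays were left out are given in both forms below. The exception is tumour against draining node in single families, given only with all arrays.

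Tumours were first set against the cultured lines, which asks which chains are carried by the tumour tissue beyond the level of its own cells in a dish. In the tumours 5 chains were higher: the type III chain Col3a1, the type I chain Col1a2, the type VI chains Col6a1 and Col6a3 and the FACIT chain Col12a1, by 1.04 to 1.62 on the log2 scale. None of the 38 was lower. Across all 13863 genes tested, 2.04% were called higher and 11.3% lower. A call here and below means an adjusted p under 0.05 (limma, Benjamini-Hochberg over all genes tested) with an absolute log2 difference of at least 1. The test used the 10 family differences, since a line's culture is a single array. By class, 2 of 10 fibrillar chains tested, 2 of 4 type VI chains and 1 of 7 FACIT chains were called, and 0 of 6 type IV chains (limma), none of which passed an unadjusted p of 0.05 either. The median difference was 0.136 over the members and -0.263 over all genes. With quantile normalisation the medians were 0.298 for the members and -0.019 for all genes, so differences below are best read against that shift. Positive differences were found for 32 of 38 members as deposited and for 36 after quantile normalisation.

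Col3a1, the chain of the type III collagen that accompanies type I in soft tissue, lies on chromosome 1 (chr1:45311538-45349706, GRCm38.p6). Its level over the 77 tumours ran from 5.09 through a median of 6.75 to 8.59, and over the 16 cultures from 4.77 through 5.22 to 7.15. Every tumour lay above its own culture in 9 of 10 families, B16 being the exception. The family difference ran from 0.72 in B16 to 2.75 in PAN02, and its mean was 1.45 ± 0.17 (SE, 10 families, adjusted p = 8.31e-06 by limma). Col1a2, the second chain of type I collagen (chr6:4505618-4541543), had tumour values of 5.60, 6.80 and 9.06 (lowest, median, highest) and culture values of 5.18, 5.52 and 8.35. All 10 families were higher in tumours, by 0.045 in CT26 up to 2.19 in PAN02, with a mean of 1.07 ± 0.21 (adjusted p = 0.000688, limma). That mean was 0.95 without the PAN02 family and 0.97 without Renca, both under the fold limit. Its partner Col1a1 had a mean of 0.95 ± 0.19 (adjusted p = 0.000847, limma), positive in 10 of 10 families and under the fold limit as deposited, and was called after quantile normalisation and after array medians were subtracted.

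Col12a1, the type XII chain that binds the surface of type I fibrils (chr9:79598987-79721141), had the widest spread. Tumours ran from 4.00 through 5.92 to 9.16, and cultures from 3.58 through 4.39 to 6.76. The difference was 3.39 in 4T1 and 3.23 in EL4, and 0.40 in MC38 and 0.49 in B16, with a mean of 1.62 ± 0.27 (adjusted p = 0.000203, limma). The Renca, PAN02 and TRAMP-C cultures stood high among the cultures, at 6.76, 6.61 and 6.49 (mean of TRAMPC1 and TRAMPC2), and the tumours of these families were higher still by 1.52, 1.15 and 1.43. Col6a3, the large chain of type VI (chr1:90766860-90844001), ran from 5.20 through 6.44 to 8.64 in tumours and from 4.48 through 4.91 to 7.41 in cultures. Its difference was positive in 9 families, reached 2.44 in Renca and was -0.10 in TRAMP-C, with a mean of 1.38 ± 0.22 (adjusted p = 0.000113, limma). Col6a1, the first type VI chain (chr10:76708792-76726044), ran from 4.67 through 6.65 to 8.71 in tumours and from 4.47 through 5.47 to 7.81 in cultures. Its mean difference was 1.04 ± 0.16 (adjusted p = 9.69e-05, limma) and was also just below zero in TRAMP-C alone (-0.079). Without the family CT26, EL4 or Renca it was 0.98, 0.98 or 0.95 and no longer met the fold limit.

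**Figure D1:**
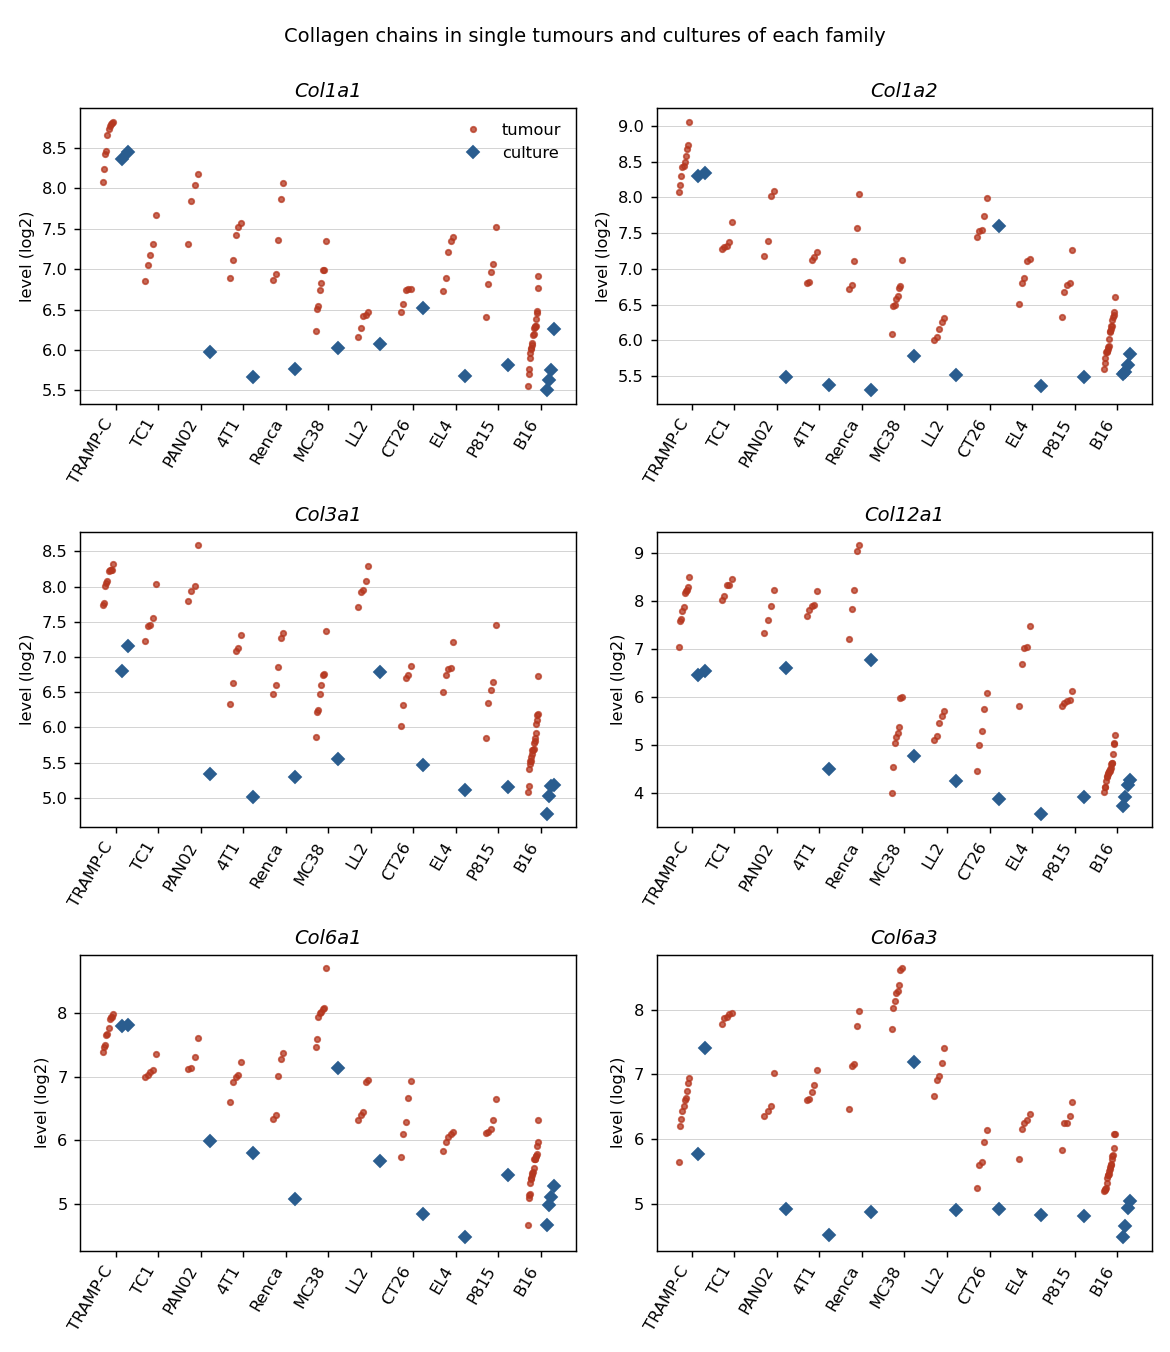
Log2 level of 6 collagen chains (Col1a1, Col1a2, Col3a1, Col12a1, Col6a1 and Col6a3) by tumour family. Circles on the left of each family are single tumours and diamonds on the right are the single cultures of its lines. Col3a1 tumours lie above the culture in 9 of 10 families, and the TRAMP-C cultures lie near their tumours for Col1a1, Col1a2, Col6a1 and the TRAMPC2 culture for Col6a3.

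A further 7 chains passed the adjusted p under 0.05 but not the fold limit: Col1a1, Col10a1 (0.96 ± 0.19), Col14a1 (0.88 ± 0.17), Col5a2 (0.68 ± 0.17), Col6a2 (0.67 ± 0.11), Col20a1 (0.57 ± 0.11) and Col15a1 (0.55 ± 0.13). Col10a1 and Col14a1 were called once array medians were subtracted, which gave 8 called chains. Altogether 8 chains had a positive difference in 10 of 10 families: Col1a1, Col1a2, Col3a1, Col6a2, Col10a1, Col12a1, Col14a1 and Col20a1. The share of all genes with such a pattern was not taken. Col14a1, a FACIT chain, was low in every culture. Its 16 cultures ran from 3.80 to 4.64, its 77 tumours from 3.97 to 6.97, its 92 nodes from 4.13 to 6.55 and its 98 spleens from 4.87 to 6.91, so no culture reached the level of any spleen. The share of all genes that separate cultures from spleens in this way was not taken either. The cartilage chains Col2a1, Col9a1, Col9a2, Col9a3 and Col11a2 had mean tumour minus culture differences between -0.13 and 0.080 and none passed the test.

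The promoters of Col1a2, Col3a1, Col6a1 and Col6a3 are shown because these chains, 4 of the 5 called, were higher in the tumours. Each is the 250 bases before the transcript start in RefSeq's table, 5′ to 3′ on the gene's strand, from RefSeq on GRCm38.p6. For Col6a3 that start lies 30 bases inside the gene record given above, and for the other chains it is the end of the record. Capitals mark the motifs searched on both strands: the CCAAT box (CCAAT), the GC box (GGGCGG) and the TATA box (TATAAA).
Col1a2 (chr6:4505368-4505617, plus strand): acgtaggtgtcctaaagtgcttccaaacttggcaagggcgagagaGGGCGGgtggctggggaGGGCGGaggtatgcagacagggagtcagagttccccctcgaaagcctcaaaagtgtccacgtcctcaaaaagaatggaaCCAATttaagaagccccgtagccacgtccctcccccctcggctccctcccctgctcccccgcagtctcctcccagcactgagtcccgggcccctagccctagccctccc
Col3a1 (chr1:45311288-45311537, plus strand): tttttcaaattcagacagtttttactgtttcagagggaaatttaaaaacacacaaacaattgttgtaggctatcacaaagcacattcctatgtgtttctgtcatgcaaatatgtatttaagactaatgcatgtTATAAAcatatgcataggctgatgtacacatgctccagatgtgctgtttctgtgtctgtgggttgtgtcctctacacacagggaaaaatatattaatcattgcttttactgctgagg
Col6a1 (chr10:76726045-76726294, minus strand): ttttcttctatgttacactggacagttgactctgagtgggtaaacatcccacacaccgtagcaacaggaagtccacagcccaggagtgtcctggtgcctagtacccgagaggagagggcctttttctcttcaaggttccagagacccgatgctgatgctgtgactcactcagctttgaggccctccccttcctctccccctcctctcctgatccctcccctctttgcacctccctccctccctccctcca
Col6a3 (chr1:90843972-90844221, minus strand): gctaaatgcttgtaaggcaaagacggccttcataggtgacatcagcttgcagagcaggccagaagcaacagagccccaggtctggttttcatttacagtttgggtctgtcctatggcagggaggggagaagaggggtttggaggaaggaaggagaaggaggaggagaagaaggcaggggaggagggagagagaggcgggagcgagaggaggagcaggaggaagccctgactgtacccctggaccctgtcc
Col1a2 held 1 CCAAT, 109 bases before the start, and 2 GGGCGG, the nearer one 188 bases before it. Col3a1 held 1 TATAAA, 117 bases before the start, and Col6a1 and Col6a3 held none of these letters in the window. Over all 32851 windows of this length, 33.8% held CCAAT, 32.7% GGGCGG and 12.4% TATAAA. Of the 31 chains with a window, 12 held CCAAT, 19 GGGCGG and 5 TATAAA. A match is a description of the letters and not evidence of binding.

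Some lines carried fibrillar collagen in culture. The prostate lines TRAMPC1 and TRAMPC2 in culture had 8.36 and 8.45 for Col1a1, 8.30 and 8.35 for Col1a2, 7.46 and 7.46 for Col5a2, a type V chain that limits fibril width, and 7.00 and 7.03 for Col11a1, a minor fibrillar chain. The other 14 cultures had at most 6.52 for Col1a1, 7.60 for Col1a2, 5.19 for Col5a2 and 5.56 for Col11a1, so the TRAMP-C cultures stood apart for these 4 chains. The gap was smaller for Col3a1 and Col5a1, where the TRAMP-C culture means were 6.98 and 6.38 beside 6.79 and 6.31 in LL2. The 4 chains were chosen after their values were seen, and the share of all genes with such a gap was not taken. The tumour minus culture difference in TRAMP-C was 0.18 for Col1a1, 0.17 for Col1a2, -0.23 for Col5a2 and -0.15 for Col11a1. CT26 in culture had 7.60 for Col1a2 beside 6.52 for Col1a1 and 5.47 for Col3a1, and its 5 tumours had 7.99, 7.52, 7.54, 7.74 and 7.45 for Col1a2. The CT26 culture therefore lay within the range of its own tumours for Col1a2 and not for Col3a1, whose tumour mean was 6.53. The LL2 culture had 6.79 for Col3a1, and the MC38 culture had 7.14, 6.59 and 7.20 for Col6a1, Col6a2 and Col6a3. These culture values are single arrays with no replicate.

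Markers of cell types were set against the cultures in the same comparison. Of the 10 fibroblast markers 6 were higher in tumours than in cultures, with Dcn at 4.05, Lum at 3.00, Mfap5 at 2.05 and Thy1 at 1.88, and their mean ran from 4.59 to 7.43 in tumours and from 4.14 to 6.18 in cultures. Endothelial markers rose in 4 of 7 (Cdh5 by 2.28), pericyte markers in 2 of 5 (Rgs5 by 3.31), macrophage markers in 7 of 7, skeletal muscle markers in 3 of 6 and keratinocyte markers in 1 of 8. The endothelial mean ran from 4.54 to 6.02 in tumours and from 3.85 to 4.46 in cultures, and did not overlap. No marker of adipocytes (0 of 6), cartilage (0 of 6), acinar cells (0 of 6), lymphocytes (0 of 4), melanocytes (0 of 4), mast cells (0 of 4) or erythroid cells (0 of 3) was called by limma. The part of these cells in the collagen differences was not tested.

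Calls in the lists of genes linked to collagen lay mostly in the cleavage list. For tumour against culture, the share of calls over every gene tested was 2.04% in the higher direction and 11.3% in the lower. Of 14 genes for folding and modification of the chains (prolyl and lysyl hydroxylases, chaperones and glycosyltransferases) 0 were called in either direction in tumours against cultures by limma, with a median of -0.30. At an adjusted p under 0.05 without the fold limit, Plod3, P3h1, P3h2, Crtap, Ppib and Colgalt1 were below zero, from -0.85 to -0.49. Of 7 genes for propeptide removal and crosslinking 0 were called, with Loxl2, a lysyl oxidase-like enzyme, at 0.90. Among 9 genes of collagen cleavage 4 were higher: the collagenase Mmp13 (1.17), the gelatinase Mmp2 (1.19), the cathepsin Ctsk (1.15) and the inhibitor Timp3 (1.17). Of 7 collagen receptors only Lair1, an inhibitory receptor of leukocytes, was called (1.48), and of 10 basement membrane partners only the laminin chain Lama4, found in vessel walls (1.75).

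The type IV chains had no common direction over the families. The chains Col4a1 and Col4a2 form the common type IV collagen of basement membranes and had mean tumour minus culture differences of -0.01 ± 0.27 (adjusted p = 0.981) and -0.06 ± 0.15 (adjusted p = 0.772, limma, 10 families). In cultures Col4a1 ran from 4.78 in Renca and 4.81 in EL4 to 7.40 in LL2, 7.27 in TRAMPC2 and 7.23 in TRAMPC1. In tumours all 77 arrays lay between 5.60 and 6.81. The 10 family values had an SD of 1.02 in cultures and 0.262 in tumours for Col4a1, and 0.558 in cultures and 0.139 in tumours for Col4a2. Each culture is 1 array and each tumour value a mean, so the spreads carry different amounts of array error. The range over families was smaller in tumours than in cultures for 31 of the 39 chains, 5 of the 6 type IV chains among them. This count was not made over all genes, so it cannot be read as a trait of the collagen chains.

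The sign of the Col4a1 difference was not the same in every family. Renca tumours had 6.76, 6.47, 6.61, 6.37 and 6.28 against 4.78 in the Renca culture, and EL4 tumours had 5.89, 6.34, 5.77, 5.71 and 6.12 against 4.81 in the EL4 culture, so all tumours of both lay above the culture. LL2 tumours had 6.12, 6.33, 5.87, 6.26 and 6.03 against 7.40 in the LL2 culture, and all 10 TRAMP-C tumours lay between 5.80 and 6.66 against 7.23 and 7.27 in the TRAMP-C cultures, so all tumours of both lay below. The family differences were 1.72 in Renca, 1.16 in EL4, 0.73 in P815 and 0.49 in B16, and -1.28 in LL2, -1.02 in TRAMP-C, -0.63 in MC38, -0.54 in 4T1, -0.52 in PAN02 and -0.19 in CT26. After quantile normalisation the differences were 1.61 in Renca, 0.99 in EL4, -0.68 in LL2, -0.27 in TRAMP-C and -0.19 in MC38, while 4T1, CT26 and PAN02 changed sign. A difference that is taken from the culture value depends on the error of that single array, and no family difference was tested. Col4a2 had the same sign as Col4a1 in each of the 10 families as deposited, from 0.70 in Renca to -0.93 in LL2. The sign of Col4a2 also changed in 4T1, CT26 and PAN02 after quantile normalisation. With array medians subtracted, the signs differed in 4T1, at -0.255 for Col4a1 and 0.096 for Col4a2.

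Col4a1 and Col4a2 lie head to head on chromosome 8. The sequence around their starts is shown because the pair had the same sign in each family as deposited. RefSeq's table places a start of Col4a1 at 11312826 on the minus strand and that of Col4a2 at 11312805 on the plus strand (GRCm38.p6), so transcripts from these starts overlap by 22 bases. The gene record of Col4a1 reaches 63 bases further, to 11312889. In the stretch chr8:11312801-11312830, read on the plus strand, capitals mark the bases from one start to the other.
Col4a1 and Col4a2 starts: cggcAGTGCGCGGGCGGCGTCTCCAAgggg
The other type IV genes are paired as well: Col4a6 and Col4a5 lie 1.3 kb apart on chromosome X, and Col4a4 and Col4a3 meet on chromosome 1. The mean differences of these 4 chains, which in the adult are found in restricted basement membranes such as those of the kidney, lay between -0.045 and 0.16 and none passed the test.

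**Figure D2:**
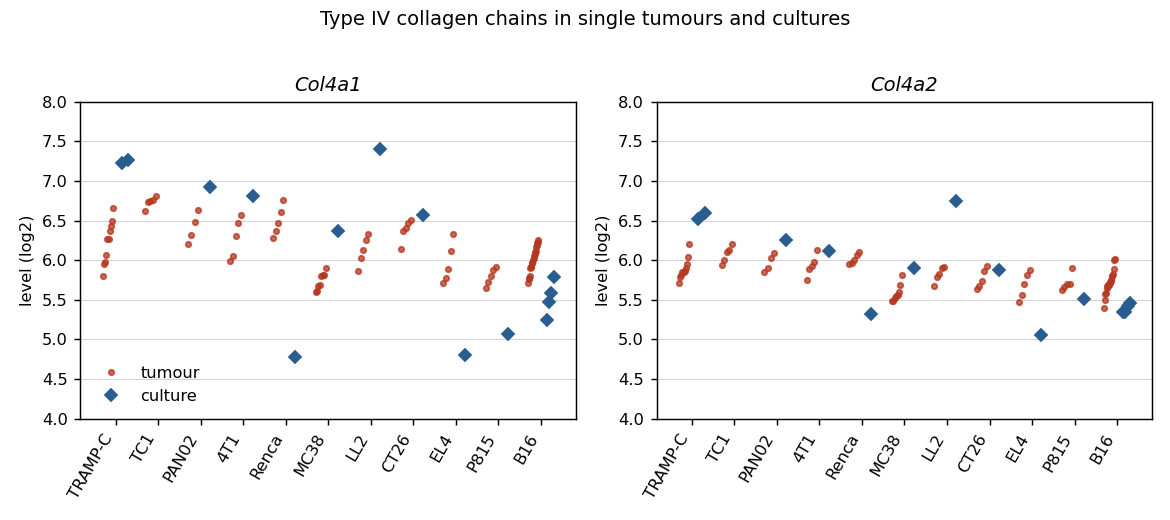
Log2 level of Col4a1 and Col4a2 by tumour family, with single tumours as circles on the left and single cultures as diamonds on the right. Col4a1 in the 77 tumours lies between 5.60 and 6.81, while the cultures spread from 4.78 to 7.40.

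Col8a1, a chain of the short network collagen of vessel walls and the cornea, had no common direction (mean difference 0.18 ± 0.20, adjusted p = 0.501, limma). In 4T1 the 5 tumours had 6.09, 5.23, 5.48, 5.25 and 5.32, all below the 6.74 of the culture. In Renca the tumours had 6.09, 4.82, 6.53, 4.50 and 4.88, with a mean difference of 1.03. CT26 tumours lay below their culture (6.96) by 0.54 as deposited and above it by 0.13 after quantile normalisation. Col18a1, the multiplexin that gives rise to endostatin, reached 7.14 in the PAN02 culture, against 6.40, 6.44, 6.32 and 6.27 in the 4 PAN02 tumours.

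**Figure D3:**
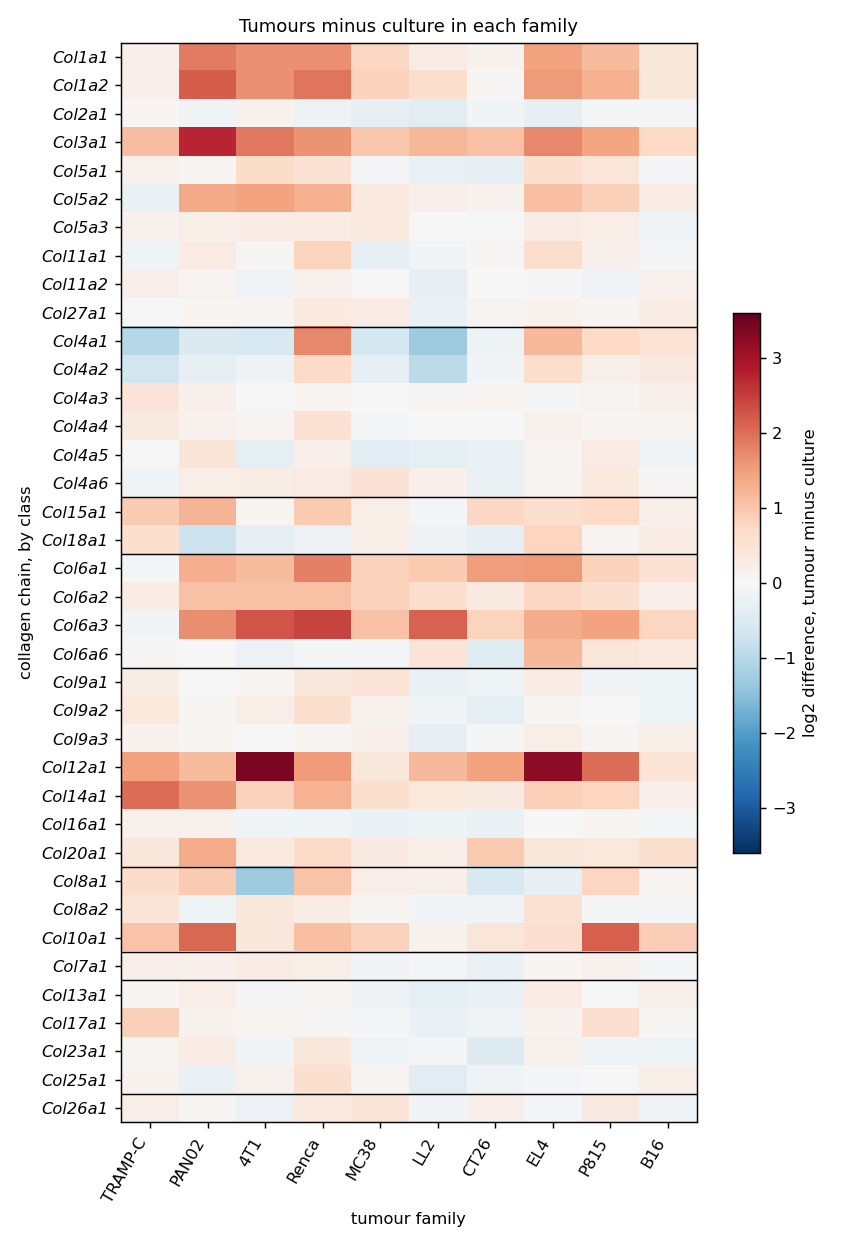
Tumour minus culture log2 difference of 38 collagen chains (rows, with classes separated by lines) in 10 tumour families (columns). Col3a1, Col1a1, Col1a2, Col6a2 and Col12a1 are positive in all 10 families, and Col4a1 ranges from 1.72 in Renca to -1.28 in LL2.

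Tumours were next compared among the 15 models. Of 38 chains 14 differed among them by the moderated F test (limma) and a spread of 1 or more between the highest and lowest group mean, against 52.8% of the 13746 genes tested. The median range was 0.879 over the chains and 1.064 over all genes. The 14 were 5 fibrillar chains, 3 of type VI, the FACIT chains Col12a1 and Col14a1, and 1 chain each of Col8a1, Col4a5, Col17a1 and Col18a1. Col12a1 had the widest range, 3.92, between Renca (highest group mean) and B16F0 of ECACC (lowest). The ranges of Col1a1, Col1a2, Col3a1 and Col5a2 were 2.57, 2.58, 2.58 and 2.66, with a TRAMP-C line highest and a B16F0 stock lowest for each. The ranges of Col6a1, Col6a2 and Col6a3 were 2.60, 1.88 and 2.84, with MC38 highest and B16F0 of ECACC lowest for each.

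Setting a family against the average of the other 10 gave 34 called chain and family pairs of 418, 21 higher and 13 lower, where 4.71% of all such pairs over every gene were called. Without the 7 tumours rich in keratinocyte markers there were 36, 21 higher and 15 lower. Without the 2 rich in acinar markers there were 33, 20 higher and 13 lower. TRAMP-C had 9 higher chains, where 3.05% of all genes were called higher. In the 10 TRAMP-C tumours Col5a2 ran from 7.05 through 7.25 to 7.39, Col11a1 from 6.49 through 6.92 to 7.10, Col1a1 from 8.08 through 8.70 to 8.83 and Col1a2 from 8.08 through 8.47 to 9.06. The differences from the other families were 1.86 ± 0.09 for Col5a2, 1.85 ± 0.08 for Col11a1, 1.60 ± 0.11 for Col1a1, 1.55 ± 0.10 for Col1a2 and 1.47 ± 0.17 for Col8a1 (SE, adjusted p from 5.7e-29 to 1.73e-11, limma). The remaining 4 were Col12a1, Col3a1, Col14a1 and Col6a1, from 1.39 to 1.03, and Col6a1 was under the fold limit without TRAMPC1 tumour 28 (0.996), TRAMPC2 tumour 33 (0.996) or TRAMPC2 tumour 35 (0.999). Without the 7 tumours rich in keratinocyte markers all 9 remained called, from 1.05 to 1.92, and Col6a2 was called as well (1.12, against 0.94 with them). TRAMP-C tumours also had the highest mean of the fibroblast markers, 7.08 (PAN02 7.04), and of the cleavage genes, 8.12. The cultured lines TRAMPC1 and TRAMPC2 themselves had fibroblast marker means of 5.67 and 6.18, against a median of 4.54 over the 16 cultures. Their cleavage gene means were 7.13 and 7.37, against a median of 5.705. Markers called higher in TRAMP-C were 5 of 10 for fibroblasts, 5 of 8 for keratinocytes, 3 of 6 for skeletal muscle and 2 of 7 for macrophages, with 0 of 7 for endothelium and 0 of 5 for pericytes (limma). The mean of the keratinocyte markers was 6.24 and that of the skeletal muscle markers 6.69 in TRAMP-C tumours. The part of these cells was not tested.

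B16 melanoma had 7 lower chains, where 4.34% of all genes were called lower. Its 20 tumours ran from 4.02 through 4.47 to 5.21 for Col12a1, from 5.09 through 5.69 to 6.73 for Col3a1 and from 4.67 through 5.53 to 6.31 for Col6a1. The differences were -2.35 ± 0.12 for Col12a1, -1.44 ± 0.09 for Col3a1, -1.38 ± 0.08 for Col6a1, -1.36 ± 0.13 for Col8a1 and -1.30 ± 0.08 for Col6a3 (SE, adjusted p at most 2.66e-15, limma). Col1a2 and Col1a1 followed with -1.13 and -1.04, and Col1a1 was at -0.96 after quantile normalisation, under the fold limit. B16 tumours had the lowest mean of the fibroblast markers among the 11 families, 4.95, and of the macrophage markers, 5.27; the part of these cells was not tested. No type IV chain was called in B16 or in any other family.

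MC38 carcinoma was called higher for 3 type VI chains. Its 8 tumours ran from 7.71 through 8.28 to 8.64 for Col6a3, from 7.47 through 8.01 to 8.71 for Col6a1 and from 6.93 through 7.49 to 7.71 for Col6a2. Against the other families these were higher by 1.69 ± 0.12, 1.31 ± 0.12 and 1.09 ± 0.11 (SE, adjusted p = 9.88e-20, 1.14e-14 and 8.41e-14, limma; 2.45% of genes were called higher), and Col6a2 was at 0.86 after quantile normalisation, under the fold limit. The same tumours were lower for Col12a1 by -1.64 ± 0.17 (adjusted p = 1.47e-12, limma; 1.64% of genes called lower), with values from 4.00 through 5.21 to 6.01. Col6a1, Col6a2 and Col6a3 thus lay above the other families and Col12a1 below their mean in MC38, whose fibroblast marker mean was 5.89. For Col12a1 B16 was lower still, with a family mean of 4.52 against 5.17 in MC38. The type VI chain Col6a6 was not called in MC38. Col6a1 and Col6a2 lie 85.2 kb apart on chromosome 10, and Col6a3 lies on chromosome 1.

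Col12a1 split the families. It was called higher in Renca (1.79 ± 0.21), TC1 (1.74 ± 0.21), 4T1 (1.37 ± 0.21), PAN02 (1.21 ± 0.23) and TRAMP-C (1.39 ± 0.16), and lower in B16, MC38, CT26 (-1.48 ± 0.21) and LL2 (-1.37 ± 0.21), with adjusted p of at most 3.41e-05 (limma). Across all genes 2.87% were called higher in Renca, 3.21% in TC1, 1.71% in 4T1 and 2.28% in PAN02, and 1.17% lower in CT26 and 1.29% lower in LL2. The 5 Renca tumours had 9.16, 8.23, 9.02, 7.20 and 7.82, and the 5 TC1 tumours 8.46, 8.02, 8.34, 8.10 and 8.32. The 5 CT26 tumours had 6.08, 5.30, 4.99, 5.74 and 4.47, and the 5 LL2 tumours 5.60, 5.10, 5.47, 5.20 and 5.71. The Renca and TC1 tumours did not overlap with those of CT26 or LL2. These families were picked by their calls, and the share of all genes that separate them in this way was not taken.

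Other families differed by 1 to 3 chains. LL2 tumours were higher for Col3a1 (7.95, 8.30, 7.92, 8.08 and 7.70; difference 1.02 ± 0.17, adjusted p = 2.13e-06, limma; 1.97% of genes called higher) and lower for Col1a2 (6.31, 6.25, 6.00, 6.16 and 6.05; -1.03 ± 0.14, adjusted p = 1.95e-08). The Col3a1 call rests on a value near the fold limit, being 0.94 without LL2 tumour 14, 0.99 without tumour 17, 0.999 without P815 tumour 27, 0.97 without the 7 tumours rich in keratinocyte markers and 0.87 after quantile normalisation. Col1a2 in LL2 was -0.99 without tumour 16 and -0.97 without PAN02. CT26 tumours were higher for Col8a1 (1.25 ± 0.22, adjusted p = 1.16e-05; 1.98% called higher) and lower for Col6a3 (-1.11 ± 0.15, adjusted p = 5.49e-09, limma), the second at -0.99 without CT26 tumour 29. Without the tumours rich in keratinocyte markers, Col5a2 (-1.03, against -0.90 with them) and Col6a2 (-1.01, against -0.89) were called lower in CT26 too. TC1 tumours were higher for Col6a3, with 7.93, 7.95, 7.79, 7.88 and 7.89 (1.28 ± 0.15, adjusted p = 3.92e-11, limma).

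EL4 tumours were lower for Col8a1, at 4.32, 4.14, 4.00, 3.94 and 4.04 (-1.32 ± 0.22, adjusted p = 1.55e-06, limma; 4.12% of genes called lower). PAN02 tumours were higher for Col3a1 (7.79, 8.00, 8.59 and 7.94; 1.12 ± 0.19) and Col8a1 (5.36, 6.20, 7.17 and 6.45; 1.11 ± 0.25, adjusted p = 0.000305, limma). Without the tumours rich in acinar markers these PAN02 differences were 0.90 and 0.72, and without tumour 4 alone 0.95 and 0.82, all under the fold limit. Without those tumours Col14a1 was called in PAN02, at 1.15 against 0.83 with them. P815 had 0 calls among 38 chains, where 6.77% of all genes were called. In P815 17 chains passed an unadjusted p of 0.05 and 16 the adjusted p (limma), all under the fold limit. Its tumours were the highest group for Col17a1, the hemidesmosome chain of keratinocytes, with 5.54, 6.42, 6.53, 5.02 and 6.90. The 7 tumours rich in keratinocyte markers had Col17a1 between 6.09 and 7.27. Without them the range of Col17a1 over models was 0.34, against 1.07 with them, and leaving out P815 tumour 27, 28 or 30 alone gave 0.99, 0.96 or 0.91, under the fold limit. The ranges of Col4a6 and Col5a1 were 1.09 and 1.01 without the 7 tumours, which were called, and 0.96 and 0.93 with them. The range of Col18a1, 1.02 with PAN02 highest, was 0.99 without PAN02 tumour 3, 0.998 without the tumours rich in acinar markers and 0.87 without PAN02.

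**Figure D4:**
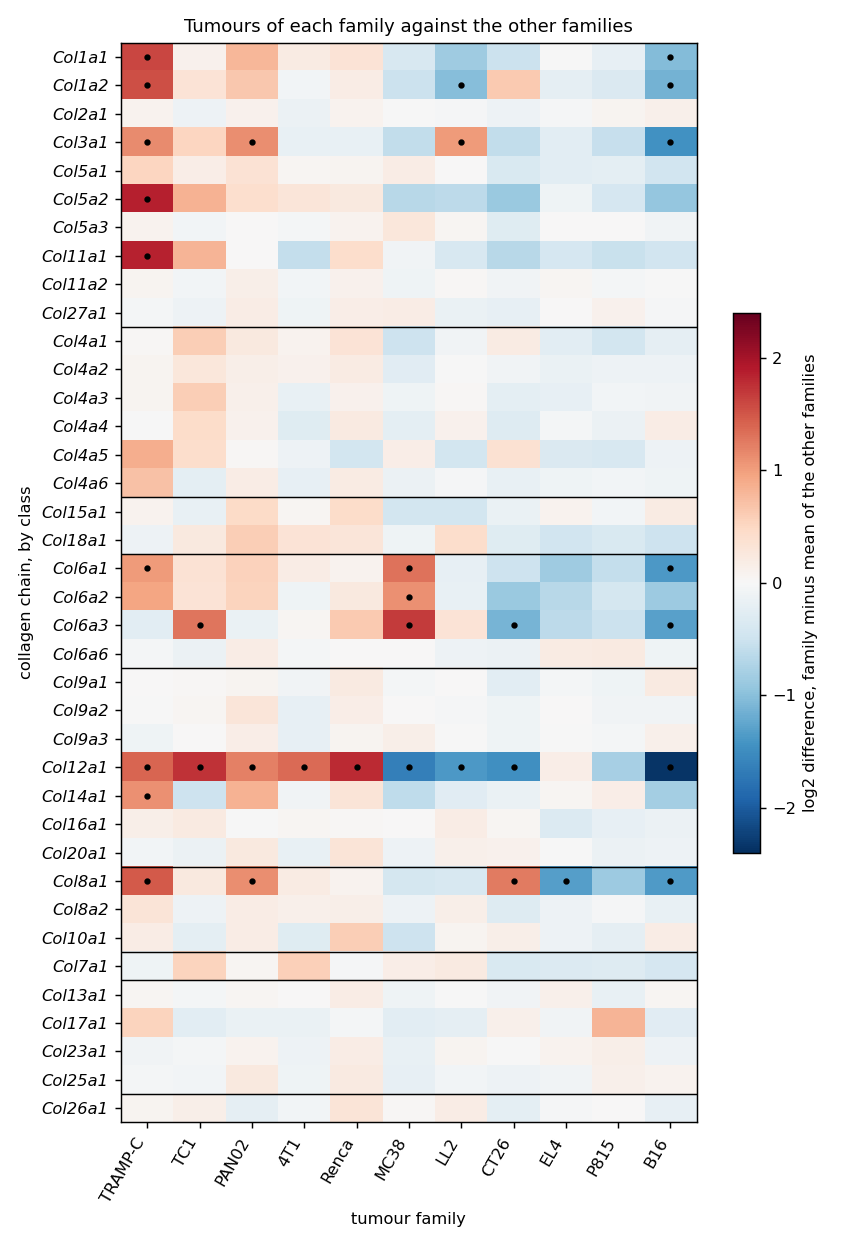
Log2 difference of each tumour family (columns) from the mean of the other 10 families for 38 collagen chains (rows, classes separated by lines), with dots on called pairs. TRAMP-C carries 9 higher chains, B16 carries 7 lower chains, and MC38 is high for Col6a1, Col6a2 and Col6a3 and low for Col12a1.

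Tumours were then set against the draining nodes of 10 families. Averaged over these families, 3 of 38 chains were higher in the tumours and 0 lower. Of 13888 genes 3.77% were called higher and 3.11% lower. Col12a1 was higher by 1.63 ± 0.11, Col6a3 by 1.11 ± 0.06 and Col8a1 by 1.09 ± 0.09 (SE, adjusted p = 8.39e-29, 1.35e-34 and 1.93e-21, limma), and Col6a3 was at 0.95 after quantile normalisation, under the fold limit. Over the 72 draining nodes Col12a1 ran from 4.16 through 4.60 to 8.65, Col6a3 from 5.04 through 5.47 to 7.49 and Col8a1 from 3.25 through 3.85 to 6.35. Tumours overlapped with nodes for each of these chains. Without the nodes low in lymphocyte markers, an alternative chosen after the data were seen, the differences were 1.95 for Col12a1, 1.25 for Col6a3 and 1.28 for Col8a1. In single families the calls ran from 0 in B16 to 11 higher in TRAMP-C, with 9 higher and 1 lower in TC1. Col12a1 was called higher in 4T1, EL4, P815, Renca, TC1 and TRAMP-C, and not in B16, CT26, LL2 or MC38. The 4T1, CT26 and Renca nodes include those low in lymphocyte markers, and the calls of these families are given only with those nodes included. Shares over all genes are not given here by family.

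Under the fold limit, the type I, III, V and VI chains Col3a1 (0.87), Col6a1 (0.83), Col1a1 (0.70), Col1a2 (0.69), Col5a2 (0.68) and Col6a2 (0.63) also passed the adjusted p. The 6 type IV chains were all above zero as deposited, Col4a1 by 0.38 and Col4a2 by 0.15. Of the 38 chains 35 were positive as deposited and 26 after quantile normalisation, and the median of all genes was 0.103 as deposited and 0.017 after quantile normalisation. Col10a1, the chain of hypertrophic cartilage, ran the other way, at -0.70 ± 0.07 (adjusted p = 2.26e-16, limma), under the fold limit. In single families Col10a1 was called lower in P815 (-1.12) and TC1 (-1.09). Its tumours ran from 3.92 through 5.50 to 6.66, its draining nodes from 5.34 through 6.21 to 7.13. Genes of collagen folding and modification were higher in tumours than in nodes in 6 of 14 (Plod2 2.72, P4ha2 1.65, P4ha1 1.63 and P4hb 1.51), and 5 of 5 lymphocyte markers were lower. Cleavage genes were higher in 4 of 9 (the inhibitor Timp1 by 3.20, Mmp13 by 1.98, Mmp14 by 1.37 and Mmp2 by 1.06).

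The nodes themselves were compared between tumour-bearing and tumour-free mice of the same strain and sex. Averaged over 10 families, 0 of 38 chains were called (limma; 0.453% of 13469 genes were called), and 4 passed an unadjusted p of 0.05. Col12a1 had a difference of 0.30 ± 0.18 (adjusted p = 0.28, limma), which was -0.0017 without the nodes low in lymphocyte markers. By family 2 of 380 chain and family pairs were called, where 1.7% of such pairs over every gene were called. Both were in Renca, where 6.64% of all genes were called higher. Col12a1 in Renca draining nodes was 4.18, 8.65, 8.31, 5.28 and 7.81, against 4.93, 4.52, 4.41, 4.75 and 4.69 in tumour-free BALB/c nodes. Col6a3 was 5.38, 7.49, 7.37, 6.28 and 6.62 in Renca draining nodes, against 5.39, 5.37, 5.52, 5.68 and 5.32 in tumour-free nodes. The high values are those of mice 21, 22 and 24, whose nodes were low in lymphocyte markers.

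The Renca differences were 2.18 ± 0.39 for Col12a1 (adjusted p = 1.49e-05) and 1.17 ± 0.24 for Col6a3 (adjusted p = 0.00011, limma). Without the nodes low in lymphocyte markers they were 0.069 and 0.37, with adjusted p of 0.954 and 0.601, and 0 pairs were called in any family. Col6a3 was also under the fold limit without mouse 21 (0.96) or mouse 22 (0.99). Over the 66 draining nodes with a lymphocyte mean of at least 8, Col12a1 ran from 4.16 to 5.28 and Col6a3 from 5.04 to 6.28, and over the 18 such tumour-free nodes from 4.36 to 5.03 and from 5.01 to 6.02.

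**Figure D5:**
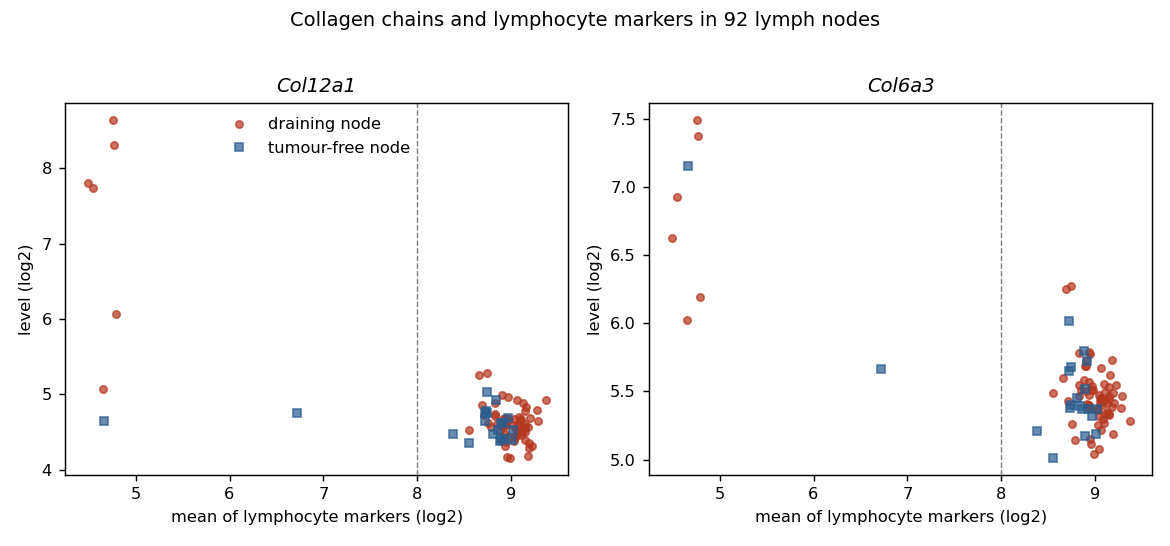
Log2 level of Col12a1 and Col6a3 in 92 nodes against the mean of the 5 lymphocyte markers in the same node, with a dashed line at 8. Nodes right of the line have Col12a1 between 4.16 and 5.28, and the 6 draining nodes left of it have Col12a1 between 5.07 and 8.65.

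Spleens of tumour-bearing and tumour-free mice were compared in the same way. Of 38 chains 0 were called (limma; 0.231% of 13414 genes were called), with 5 past an unadjusted p of 0.05, and 0 of 418 chain and family pairs were called, where 1.08% of such pairs over every gene were called, with 50 past an unadjusted p of 0.05. Only Col15a1, a multiplexin of basement membrane zones, passed the adjusted p, at -0.22 ± 0.06 (adjusted p = 0.0145, limma) and under the fold limit. It ran from 4.07 through 4.59 to 5.11 in 78 spleens of tumour-bearing mice and from 4.40 through 4.68 to 5.24 in 20 tumour-free spleens, which overlap. Without the 10 spleens rich in acinar markers (8 from tumour-bearing mice, 2 tumour-free), an alternative chosen after the data were seen, 0 chains and 0 pairs were called and Col15a1 was at -0.20 (adjusted p = 0.0363, limma).

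In tumour-free mice, nodes and spleens were compared over the 4 kinds of host. Of 38 chains 0 were called (limma; 1.36% of 13040 genes were called), 10 passed an unadjusted p of 0.05 and 6 the adjusted p. Col15a1 (0.43), Col6a1 (0.42), Col6a3 (0.35), Col6a2 (0.31) and Col3a1 (0.26) were above zero in nodes relative to spleens, and Col14a1 was at -0.72 ± 0.15 (adjusted p = 0.000543, limma). Col14a1 ran from 4.61 through 5.11 to 6.55 in the 20 nodes and from 4.87 through 6.10 to 6.79 in the 20 spleens, which overlap. Without the acinar-rich spleens 0 chains were called, the same 6 passed the adjusted p, and Col14a1 was at -0.75. All 3 type VI chains that differed lay under a doubling, and Col4a1 (0.12) and Col4a2 (0.055) did not pass the test.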

How the data were processed

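RNA was extracted, amplified (WT-Ovation Pico) and biotin-labelled for exon arrays, per the labels' protocols. The authors deposited log2 values of 283 arrays, made with RMA per the submitters' processing notes, with version and build not given in the sources used here. RMA equalises arrays and compresses low signals, and array medians ran from 5.19 to 5.66. Of 17831 probe sets 15620 named 1 gene, and the one with the highest mean was kept (375 genes had several). The filter was the 25th percentile of all values, and the number of arrays limits the precision. limma 3.58.1 in R 4.3.3 fitted the comparisons, all two-sided. Figures used Python 3.11.15. The fits were tested on simulated data.

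Members, lists and tests were chosen with earlier results of these data known. Named chains were the called ones, at most 12 per direction (5 for a family), plus neighbours in the genome; at most 4 called genes were named per list, and others were chosen after their values were seen. Labels name animals, not cultures of origin, so p-values measure the spread between mice of 1 line, or between families. Tumour and node of 1 mouse deviated together little (72 pairs, Pearson r from -0.229 to 0.218, median 0.002), as did tumour-free node and spleen (20 pairs, -0.182 to 0.27, median 0.007). The pairing comes from the animal numbers in the labels. Alternatives were scaling, filter, probe set, variance trend, fold, samples fitted and left-out arrays. No pair of arrays was identical (0 pairs).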

Additional observations from a re-analysis of the deposited data

Results flagged for a closer look

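Single tumours stood away from the others of their group for some chains, by Dixon's gap test at the 95% level, which flags about 1 in 20 groups by chance. Over 14 chains and 15 groups this held for 10 of 210 chain and group pairs. Higher than their groups were Col14a1 in B16F0 ATCC tumour 7 (4.58, the others 4.35 to 4.38), Col5a2 in B16F10 ATCC tumour 7 (5.15, the others 4.53 to 4.67), Col18a1 in MC38 tumour 12 (6.20, the others 5.45 to 5.79), Col14a1 in PAN02 tumour 6 (6.97, the others 5.36 to 5.57), Col1a2 in TC1 tumour 19 (7.65, the others 7.28 to 7.38) and Col18a1 in TRAMPC2 tumour 33 (5.92, the others 5.63 to 5.72). Lower were Col11a1 in B16F0 ATCC tumour 12 (4.29, the others 4.82 to 4.97), Col5a2 in TRAMPC1 tumour 30 (7.10, the others 7.31 to 7.39), Col4a5 in TRAMPC2 tumour 34 (5.27, the others 5.71 to 5.75) and Col8a1 in TRAMPC2 tumour 33 (6.03, the others 6.90 to 7.21).

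Among nodes, 5 of 54 chain and group pairs stood apart in the same way, over 3 chains. They were Col12a1 (7.73, the others 4.17 to 4.51) and Col6a3 (6.92, the others 5.12 to 5.42) in 4T1 node 36, which was low in lymphocyte markers, Col12a1 in TRAMPC1 node 28 (5.26, the others 4.51 to 4.69), Col6a3 in TRAMPC2 node 34 (6.25, the others 5.36 to 5.55) and Col8a1 in B16F0 ATCC node 11 (4.11, the others 3.61 to 3.73).

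Pairs of families also lay on opposite sides of their cultures, with every tumour of one above its culture and every tumour of the other below. There were 100 such pairs over 19 chains, of which Col4a1 held 18, Col4a2 12 and Col8a1 9, and the count was not made over all genes. In 5 of these pairs both differences were at least 1 in size on the log2 scale. For Col4a1 these were Renca and LL2 (1.72 and -1.28, a difference of 3.00), Renca and TRAMP-C (1.72 and -1.02, 2.75), EL4 and LL2 (1.16 and -1.28, 2.44) and EL4 and TRAMP-C (1.16 and -1.02, 2.18). For Col8a1 they were Renca and 4T1 (1.03 and -1.27, 2.30). These differences were not tested, since each line has 1 culture array.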

How the results depend on the processing

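No direction of a called chain reversed under any alternative, and of the single-chain values with a test 715 stayed on the same side of the threshold and 37 fell under it, mostly through the fold limit. With no minimum fold the calls were 12 for tumour against culture, 27 among the 15 models, 156 chain and family pairs, 29 for tumour against draining node, 1 for spleens, 14 and 3 pairs for single families' nodes and spleens, and 6 for node against spleen, in place of 5, 14, 34, 3, 0, 2, 0 and 0. For tumour against culture, 14 lines in place of families gave 3 (Col1a2 at 0.87 and Col6a1 at 0.85 fell under the limit), dropping EL4 and P815 gave 3, and subtracting array medians gave 8. Leaving out 1 tumour or family gave 3 (without Renca) to 7. Leaving out 1 array gave 13 to 16 among models, 32 to 35 family pairs, 3 throughout for tumour against node, 1 to 3 node pairs (1 without Renca node 21 or 22), and 0 for nodes, spleens, single families' spleens and node against spleen. For single families' nodes, quantile normalisation left 1 pair and dropping the nodes low in lymphocyte markers, chosen after seeing the data, left 0. With the animal as a replicate block, tumour against node kept 3 calls and node against spleen 0, so the block changed no count. Another filter, the mean of probe sets and a variance trend moved no count past 1.5 times. Signals near background limit the weaker chains.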
